A study of Mus musculus with 24 samples.

Results

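Interferon signaling and major histocompatibility complex (MHC) class I presentation were followed in stimulated muscle through 9 genes: Stat2, Irf1, Irf9, Isg15, Bst2, Ifitm3, B2m, H2-K1, and H2-D1. The genes were taken by name from the 56941 genes of the gene count table and of the matching table of TPM, a unit scaled to transcript length and library size. All 9 were among the 13318 genes that passed the filter on low counts. RNA sequencing was performed on 24 libraries of 2D muscle tissue grown on a fibrin hydrogel from C2C12, a line of mouse myoblasts that fuse into contractile fibers. The tissues of 6 libraries were left unstimulated as control, and those of 6 libraries each were stimulated with light at 1, 4, or 10 Hz for 30 min each day. Every condition, control included, had the genotype ChR2::tdTomato, which provides the light-gated ion channel channelrhodopsin, and was differentiated in high glucose DMEM to which inactivated horse serum (10%) and IGF-1 (50 ng/ml) had been added. The series asked how muscle transcription responds to the frequency of light stimulation. All libraries came from a single cell line with no other cell type added.

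Cells that sense interferon phosphorylate STAT2, which acts with IRF9 at interferon-stimulated response elements in the promoters of antiviral genes. IRF1 is a transcription factor that is itself induced by interferon and binds related elements, among them those of class I genes. Isg15, Bst2, and Ifitm3 belong to the antiviral products of this pathway, whereas H2-K1 and H2-D1 encode class I heavy chains that pair with the B2m light chain to carry peptides to the cell surface.

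The total count per library ranged from 4.09 to 15.2 M (mega), with a median of 7.48 M. Skeletal muscle transcripts were abundant, with Acta1 at a mean of 3292 TPM and Myog at 320 TPM in control. The leukocyte genes Ptprc and Adgre1 and the endothelial genes Cdh5 and Kdr had means below 0.05 TPM in every condition, and of 6 leukocyte markers 3 passed the filter on low counts. The monocyte and macrophage transcripts Cd68, at 135 ± 20.9 TPM, and Cd14, at 17.2 ± 3.11 TPM, were present in control (mean ± SD, n = 6). The 6 leukocyte markers summed to 131 to 187 TPM in control, 131 to 175 TPM at 1 Hz, and 96.6 to 137 TPM at 4 Hz, and of the 3 tested none passed at 1 Hz, Csf1r was lower at 4 Hz (adjusted p = 0.0195), and Cd14 was lower there by the adjusted p alone (−0.47, adjusted p = 0.00678). The 4 fibroblast markers summed to 7.0 to 15.1 TPM in control and 10.8 to 16.9 TPM at 1 Hz, and of the 2 tested Pdgfra was higher at 1 Hz by the adjusted p alone (0.45, adjusted p = 0.0257). Of all genes, 9.34% were higher than in control at 1 Hz, 10.5% at 4 Hz, and 1.24% at 10 Hz. Of 8 muscle markers, 5, 6, and 3 were higher at these frequencies. Their summed level was 8093 to 10359.7 TPM in control, 12488 to 16257 TPM at 1 Hz, 12398 to 18103 TPM at 4 Hz, and 8415 to 13556 TPM at 10 Hz, so that all libraries at 1 and 4 Hz lay above all control libraries. The part of these shifts in the results for the 9 genes was not tested, and in bulk tissue a larger share of cells of a type and more RNA per cell cannot be told apart. Mitochondrial transcripts made up 2.60% ± 0.441 of counts in control, 1.88% ± 0.369 at 1 Hz, 2.97% ± 1.22 at 4 Hz, and 3.34% ± 0.882 at 10 Hz (mean ± SD, n = 6), with overlapping ranges, and their part in the results was not tested. The libraries also differed in their content of 16 non-polyadenylated small RNA genes. The summed share of these genes, in CPM (counts scaled to the library total), was 129 ± 23.4 in control, 29.1 ± 21.1 at 1 Hz, 26.3 ± 12.4 at 4 Hz, and 123 ± 86.5 at 10 Hz. No library at 1 or 4 Hz reached the lowest control library (2-sided exact permutation p = 0.00216 for each, the smallest that 6 against 6 libraries allow). The labels state that low-input samples were made by ribodepletion and do not say which, and this share is therefore given beside the results that move with it.

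The 9 genes spanned a wide range of expression in unstimulated muscle. On the TPM scale, which corrects for transcript length, B2m had the highest level in control, at 611 ± 49.4 TPM (mean ± SD, n = 6), above the control mean of 98.2% of the genes tested. Ifitm3 followed at 194 ± 38.6 TPM, H2-K1 at 135 ± 19.5 TPM, and H2-D1 at 109 ± 16.6 TPM. The ranges of the control libraries overlapped between Ifitm3 and H2-K1 and between H2-K1 and H2-D1, so that these neighbors were not separated, whereas B2m lay above all 3. Bst2 stood in the middle of the order at 31.8 ± 6.10 TPM. The 3 transcription factors were lower, with Irf1 at 16.9 ± 3.64 TPM, Irf9 at 9.31 ± 1.22 TPM, and Stat2 at 8.88 ± 1.76 TPM, of which the last 2 overlapped. Isg15 was the lowest, at 3.91 ± 0.684 TPM, and rested on 6 to 13 estimated counts in each control library. Class I transcripts and Ifitm3 were thus abundant without stimulation, and the canonical antiviral product Isg15 was close to the limit of detection.

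**Figure D1:**
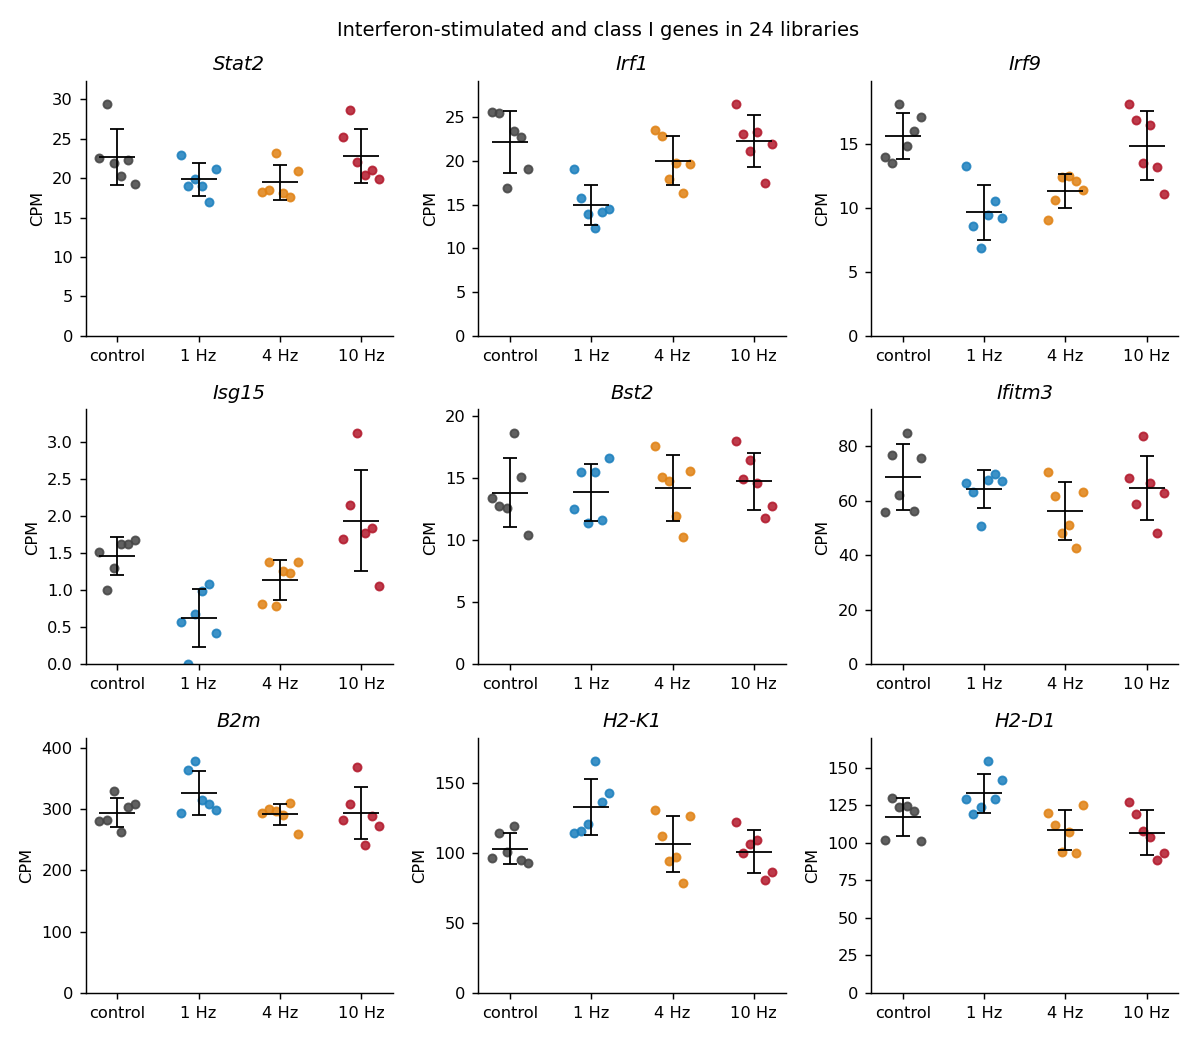
Levels of the 9 genes in each of 24 libraries, in CPM with TMM-scaled library sizes, by condition. Points are libraries (6 per condition), and horizontal bars with whiskers show the mean ± SD. The 1 Hz libraries lie low for Irf1, Irf9, and Isg15 and high for H2-K1, and the Stat2, Bst2, and Ifitm3 ranges overlap between all conditions.

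At 1 Hz, 3 of the 9 genes, Irf1, Irf9, and Isg15, were lower than in control past both thresholds, and none was higher. The thresholds were an adjusted p under 0.05 together with a log2 fold change over 0.5 in size. Across all genes tested, 18.3% passed these thresholds at 1 Hz in either direction and 8.99% were lower. By adjusted p alone, H2-K1 was added as a higher gene, making 4 of 9 genes beside 35.4% of all genes. The median log2 fold change of the 9 genes was −0.10, beside −0.01 over all genes tested. The 3 genes that fell are 2 transcription factors and 1 effector of the interferon pathway, and the gene that was higher encodes a class I heavy chain. None of the 4 passed with the small RNA share as a covariate (adjusted p from 0.518 to 0.767). In that fit the log2 fold changes of Irf9 and Irf1 became smaller in size. Those of H2-K1, at 0.38, and of Isg15, at −0.998, stayed close to those without it.

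Irf9 (GRCm39 chr14:55841028-55847812, plus strand, 9 exons in its canonical transcript) encodes the DNA-binding partner of STAT2. In control it measured 13.6, 15.5, and 18.2 CPM in the lowest, median, and highest library, and at 1 Hz 6.88, 9.35, and 13.3 CPM. All 6 libraries at 1 Hz were below all 6 control libraries, which held for 1 of the 9 genes, and 13.1% of all genes tested showed no overlap in this comparison. Irf9 fell by 0.71 on the log2 scale (SE 0.14, adjusted p = 0.00046), a level 0.611 times that of control with a 95% interval of 0.499 to 0.749. The start of Irf9 overlaps exons at the end of Rnf31, a ubiquitin ligase gene on the same strand, and reads in the overlap cannot be assigned by position. Rnf31 itself did not pass the threshold at 1 Hz, with a log2 fold change of −0.17 (adjusted p = 0.287), and was lower at 4 Hz, at −0.50 (adjusted p = 0.00162).

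Irf1 (chr11:53660812-53669200, plus strand, 10 exons) is an activator that responds early to interferon. It measured 16.8, 23.1, and 25.5 CPM in the lowest, median, and highest control library, and 12.3, 14.3, and 19.1 CPM at 1 Hz. Of the 6 libraries at 1 Hz, 5 were below every control library, and replicate 1 lay within the control range. Irf1 fell by 0.58 on the log2 scale (SE 0.13, adjusted p = 0.000853), with a level 0.669 times that of control and a 95% interval of 0.560 to 0.799. Annotated antisense transcripts overlap Irf1 exons, and the 2 of them that the count table lists held 55 and 12 estimated counts in all 24 libraries, beside 3669 for Irf1.

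Stat2 (chr10:128106352-128128735, plus strand, 24 exons), the partner of IRF9, did not pass the test at any frequency. Its mean was 22.6 ± 3.54 CPM in control, 19.8 ± 2.04 at 1 Hz, 19.4 ± 2.16 at 4 Hz, and 22.8 ± 3.41 at 10 Hz (mean ± SD, n = 6), and all conditions overlapped. The log2 fold changes were −0.19 (adjusted p = 0.187) at 1 Hz, −0.22 (adjusted p = 0.116) at 4 Hz, and 0.01 (adjusted p = 0.965) at 10 Hz. The 95% interval at 1 Hz was 0.748 to 1.03 times control. With scaling by total count, Stat2 passed the adjusted p as lower at 4 Hz (−0.32, adjusted p = 0.0264).

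Isg15 (chr4:156283883-156285303, minus strand, 2 exons) encodes a ubiquitin-like modifier and was the lowest and most variable of the genes. Its lowest, median, and highest control libraries held 1.01, 1.57, and 1.67 CPM, and those at 1 Hz held 0, 0.63, and 1.09 CPM. The 1 Hz libraries rested on 0 to 10 estimated counts, and the library at 0, replicate 2, allows up to 0.734 CPM at a limit of 3 counts. Of the 6 libraries at 1 Hz, 5 were below every control library. Isg15 fell by 1.12 on the log2 scale (SE 0.35, adjusted p = 0.015), with a level 0.462 times that of control and a wide 95% interval of 0.280 to 0.760. Without replicate 2 of 1 Hz the log2 fold change was −0.95 (adjusted p = 0.0211), and without the filter on low counts it was −1.08 and no longer passed (adjusted p = 0.0674). In the fit of only the 12 libraries compared, Isg15 did not pass the filter on low counts and was not tested. In the fit of all 24 libraries it passed that filter through libraries of the other conditions and through none at 1 Hz. Its comparisons with 1 Hz thus rest on a gene kept for its higher level elsewhere. On the log2(TPM + 0.1) scale the difference was −1.77 (limma, adjusted p = 0.013). These intervals, like the limit for a count of 0, come from read counts without molecular identifiers, and the limit covers counting error only.

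Bst2 (chr8:71986895-71990114, minus strand, 5 exons), which tethers budding viruses to the cell membrane, measured 13.8 ± 2.80 CPM in control and 13.9 ± 2.29, 14.2 ± 2.66, and 14.8 ± 2.30 CPM at 1, 4, and 10 Hz. Its log2 fold change at 1 Hz was −0.01, with a 95% interval of 0.804 to 1.23 times control, and none of its comparisons passed the test. Ifitm3 (chr7:140589499-140591282, minus strand, 2 exons), which restricts viral entry from endosomes, measured 68.6 ± 12.2 CPM in control and 64.1 ± 6.98, 56.3 ± 10.6, and 64.7 ± 11.8 CPM at 1, 4, and 10 Hz. Its libraries overlapped between all conditions and its adjusted p against control was 0.564 at 1 Hz, 0.0797 at 4 Hz, and 0.775 at 10 Hz. At 4 Hz, Ifitm3 passed on the TPM scale, with a difference of −0.49 in log2(TPM + 1) (limma, adjusted p = 0.00532).

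None of the 3 class I genes passed as lower at 1 Hz, and H2-K1 was higher by the adjusted p. H2-K1 (chr17:34214987-34219321, minus strand, 8 exons) measured 92.9, 98.6, and 120 CPM in the lowest, median, and highest control library, and 114, 129, and 166 CPM at 1 Hz. Of the 6 libraries at 1 Hz, 4 were above every control library. The log2 fold change was 0.36 (SE 0.12, adjusted p = 0.0201), which passes the adjusted p and stays under the fold threshold. H2-D1 (chr17:35481691-35486475, plus strand, 8 exons) measured 101, 123, and 130 CPM in the lowest, median, and highest control library and 119, 129, and 154 CPM at 1 Hz, and did not pass (log2 fold change 0.18, adjusted p = 0.147). B2m (chr2:121977957-121983594, plus strand, 4 exons) had a log2 fold change of 0.15 (adjusted p = 0.188), with 294 ± 24.3 CPM in control and 326 ± 35.6 CPM at 1 Hz.

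The heavy chain genes are near-identical paralogs, and their reads were split between genes by the authors' quantification. Estimated counts were not whole, by more than 0.01, in 23 of 24 libraries for H2-K1 and in 24 of 24 for H2-D1, and in 0 of 24 for B2m. With H2-K1 and H2-D1 counted as 1 gene, an alternative chosen after seeing the data, the log2 fold change at 1 Hz was 0.28 (adjusted p = 0.041), and with all 9 tested class I heavy chain genes as 1 it was 0.26 (adjusted p = 0.0404). The H2-K1 result was lost without replicate 4 of 1 Hz, its highest library (0.29, adjusted p = 0.0681), and with scaling by total count (0.28, adjusted p = 0.068). C2C12 cells derive from a different mouse strain than the reference genome, class I genes are polymorphic between strains, and the effect on these levels was not tested.

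**Figure D2:**
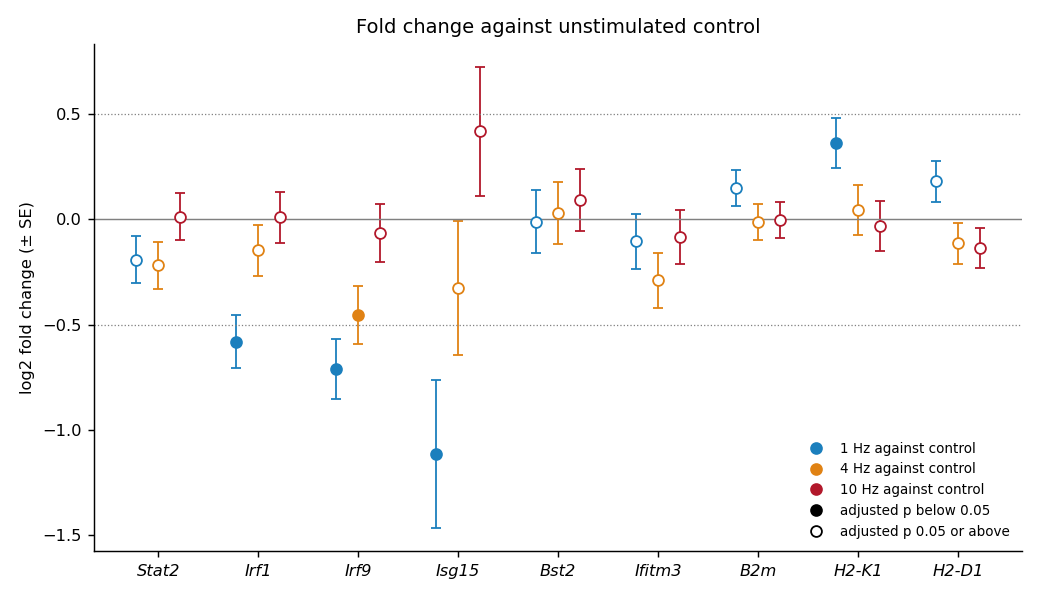
Log2 fold change of each gene against control at 1, 4, and 10 Hz (points, with bars of ± 1 SE from the edgeR fit). Filled points had an adjusted p below 0.05, and dotted lines mark the fold threshold of 0.5 in either direction. Irf1, Irf9, and Isg15 lie below the lower line at 1 Hz, Irf9 is filled but above it at 4 Hz, and every 10 Hz point is open.

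At 4 Hz, Irf9 was the gene of the 9 that passed the adjusted p, beside 39.4% of all genes. In the edgeR test none passed both thresholds, beside 20.1% of all genes, and 2 of the 9 had an unadjusted p below 0.05. DESeq2 also called none, and limma on TPM called Irf9. Irf9 measured 9.07, 11.8, and 12.5 CPM in the lowest, median, and highest library at 4 Hz, and all 6 were below all 6 control libraries. Non-overlap of this kind was found for 1 of the 9 genes and for 16.6% of all genes. The log2 fold change of Irf9 was −0.46 (SE 0.14, adjusted p = 0.0108), or 0.729 times control with a 95% interval of 0.599 to 0.888. Irf1, at −0.15 (adjusted p = 0.345), and Isg15, at −0.32 (adjusted p = 0.438), did not pass. The class I genes did not pass in edgeR, with log2 fold changes of 0.05 for H2-K1, −0.11 for H2-D1, and −0.01 for B2m. On the TPM scale H2-D1 passed the adjusted p as lower, under the fold threshold, with a difference of −0.29 in log2(TPM + 1) (limma, adjusted p = 0.034).

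At 10 Hz, none of the 9 genes passed the adjusted p in the edgeR test and none had an unadjusted p below 0.05, nor did DESeq2 or limma on TPM call any. Fewer genes passed at this frequency in all, with 1.86% past both thresholds and 4.89% past the adjusted p. Isg15 had the largest log2 fold change of the 9, at 0.42 (SE 0.31, adjusted p = 0.471), although 5 of its 6 libraries at 10 Hz, with a median of 1.81 CPM, were above every control library. Irf9 measured 14.9 ± 2.69 CPM and Irf1 22.2 ± 2.96 CPM, beside 15.6 ± 1.80 and 22.2 ± 3.54 CPM in control (mean ± SD, n = 6). The 95% intervals against control were 0.787 to 1.16 times for Irf9 and 0.848 to 1.20 times for Irf1, which leave room for changes of that size in either direction.

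Frequencies were compared directly to test whether these genes differed between them. Between 10 and 1 Hz, the 3 genes that fell at 1 Hz were higher at 10 Hz. On the log2 scale the difference was 1.53 for Isg15 (SE 0.33, adjusted p = 0.000734), 0.65 for Irf9 (SE 0.14, adjusted p = 0.00086), and 0.59 for Irf1 (SE 0.12, adjusted p = 0.000558). No library at 1 Hz helped Isg15 pass the filter on low counts, so the filter and this difference are not independent. In this comparison 17.9% of all genes passed both thresholds and 9.45% were higher. H2-K1 and H2-D1 were lower at 10 than at 1 Hz by the adjusted p alone, at −0.39 (adjusted p = 0.0116) and −0.32 (adjusted p = 0.0115), so that 5 of 9 genes passed it beside 36.3% of all genes. For both heavy chain genes, 5 of 6 libraries at 10 Hz were below every library at 1 Hz. The 10 Hz comparisons share their 1 Hz libraries with the comparison to control and are not an independent repeat of it.

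Between 4 and 1 Hz, none of the genes passed both thresholds in edgeR, DESeq2, or limma on TPM, beside 3.00% of all genes in edgeR, and 2 passed the adjusted p, beside 12.3%. At an unadjusted p below 0.05, 4 passed. Irf1 was higher at 4 Hz, by 0.43 (SE 0.12, adjusted p = 0.0216), with 20.0 ± 2.79 CPM beside 14.9 ± 2.32 CPM at 1 Hz. For H2-D1, lower at 4 Hz, the difference was −0.29 (SE 0.10, adjusted p = 0.0441), with 108 ± 13.1 CPM beside 133 ± 13.0 CPM. Each of these calls was lost when single libraries were left out, with an adjusted p of 0.0653 for Irf1 without replicate 4 of 1 Hz and of 0.118 for H2-D1 without the same library. Between 10 and 4 Hz, none passed both thresholds in edgeR or DESeq2, beside 11.0% of all genes in edgeR, and 3 had an unadjusted p below 0.05. Irf9 alone passed the adjusted p (0.39, adjusted p = 0.0384), beside 22.8%. This last result was lost without replicate 1 of 10 Hz (0.31, adjusted p = 0.124).

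Known promoter elements of the pathway are shown for the genes that carry them, because 3 of the 9 proteins act through such elements. The 300 bases from 250 before to 50 after the start of the canonical transcript (GENCODE M39 on GRCm39) were searched on both strands for AANNGAAA, the core bound by interferon regulatory factors, and for TTCNNNGAA, the gamma-activated sequence bound by factors of the STAT family. The first was found for 4 of the 9 genes, Stat2, Isg15, Bst2, and H2-K1, and in 24.8% of 21757 protein-coding promoters. The second was found for 3 of the 9 genes, Irf1, Bst2, and H2-D1, and in 8.82% of promoters. Matches upstream of the start are printed 5′ to 3′ on the strand of the gene, with matched bases in capitals, and neighboring matches may overlap.
Isg15, chr4:156285316-156285367, minus strand: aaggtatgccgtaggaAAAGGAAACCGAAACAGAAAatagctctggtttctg
Stat2, chr10:128106129-128106174, plus strand: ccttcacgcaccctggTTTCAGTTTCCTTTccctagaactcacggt
Bst2, chr8:71990215-71990289, minus strand: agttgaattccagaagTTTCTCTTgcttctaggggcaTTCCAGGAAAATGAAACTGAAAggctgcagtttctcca
Irf1, chr11:53660735-53660775, plus strand: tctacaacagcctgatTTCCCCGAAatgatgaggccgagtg
H2-K1, chr17:34219388-34219427, minus strand: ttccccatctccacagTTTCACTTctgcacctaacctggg
H2-D1, chr17:35481642-35481682, plus strand: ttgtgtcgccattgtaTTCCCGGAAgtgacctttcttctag
The Isg15 stretch carries 3 overlapping matches in tandem between bases −48 and −29 from the start, and 2 more lie farther upstream. Of the 3 genes that fell at 1 Hz, Isg15 had regulatory factor cores, Irf1 had a gamma-activated sequence, and Irf9 had a match to neither in this window. Of the 4 genes with no comparison past the adjusted p in the main edgeR fit, Stat2 and Bst2 had matches, and Ifitm3 and B2m had none. A match in these letters does not show that a factor bound.

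The levels of the 9 genes also varied among libraries of a condition, and not as 1 block. With condition means removed from log2 CPM, Pearson's r over 24 libraries was 0.85 between H2-K1 and H2-D1, which share reads. H2-K1 also moved with the antiviral genes Bst2 and Ifitm3, at r = 0.73 for each, and Bst2 with Ifitm3 at r = 0.55. B2m, whose protein pairs with H2-K1, had an r of −0.30 with it. Irf1 and Irf9, both lower at 1 Hz, had an r of 0.57 over all libraries and of 0.02 with condition means removed. These correlations describe 24 libraries that share depth and composition differences.

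**Figure D3:**
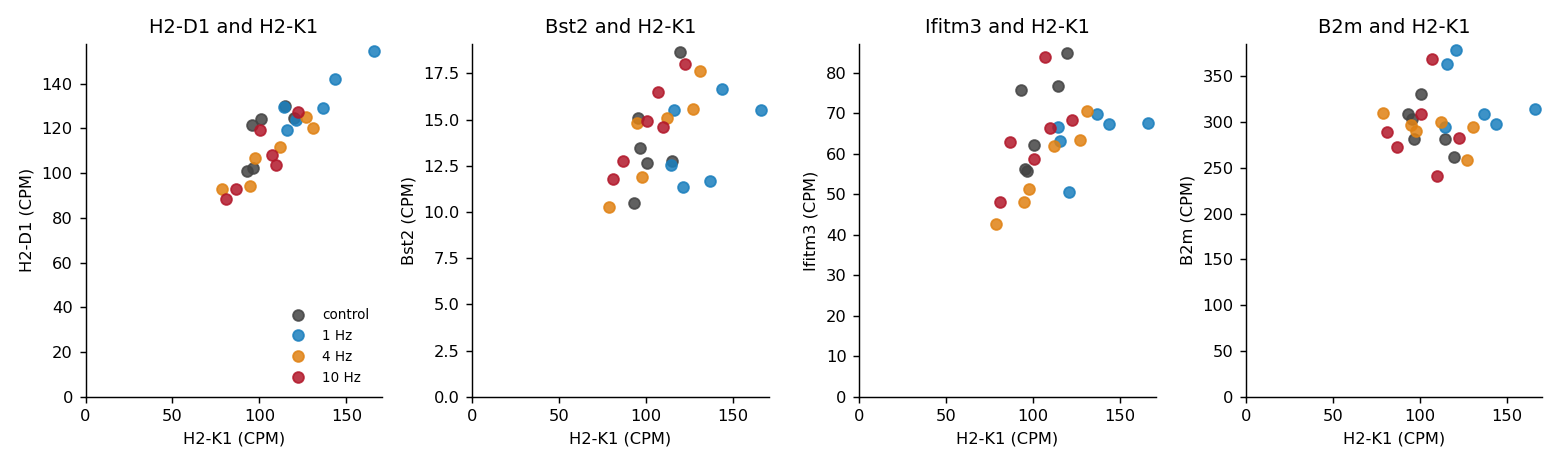
CPM of H2-D1, Bst2, Ifitm3, and B2m against CPM of H2-K1 in 24 libraries, colored by condition. Libraries high in H2-K1 are also high in H2-D1, and Bst2 and Ifitm3 rise with H2-K1 among libraries of a color, whereas B2m does not.

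The small RNA share moved with part of these genes. Over 24 libraries, Pearson's r of log2 CPM with the log2 share was 0.85 for Irf9, 0.70 for Stat2, 0.61 for Irf1, and 0.48 for Isg15, and −0.33 for H2-K1. With condition means removed it was 0.66 for Irf9, 0.58 for Stat2, 0.35 for Irf1, −0.05 for Isg15, and 0.03 for H2-K1. With the log2 share as a covariate in the fit, none of the 9 genes passed the adjusted p at 1 Hz, where Irf1 had a log2 fold change of −0.35 (adjusted p = 0.526), Irf9 of −0.20 (adjusted p = 0.767), and Isg15 of −0.998 (adjusted p = 0.562). The Irf9 difference at 4 Hz changed sign, to 0.05 (adjusted p = 0.917). In that fit 1 of the 13318 genes passed both thresholds at 1 Hz. Because the shares at 1 and 4 Hz did not overlap those of control, stimulation and library composition cannot be told apart for these genes.

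**Figure D4:**
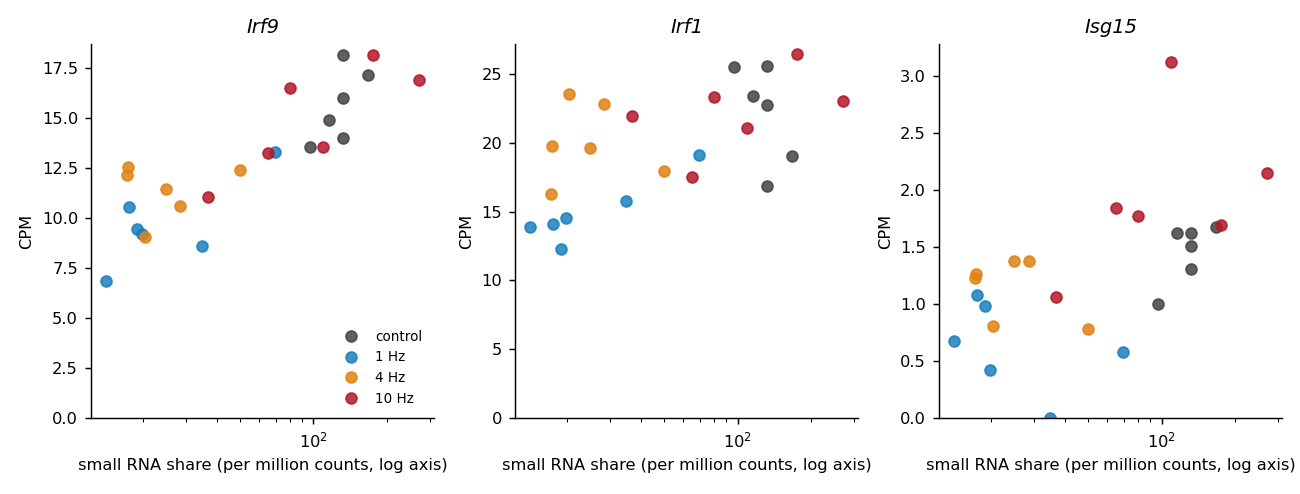
CPM of Irf9, Irf1, and Isg15 (vertical axes) against the summed share of 16 small RNA genes in CPM of the raw total (horizontal log axis) in 24 libraries, colored by condition. The 1 and 4 Hz libraries all lie left of the control libraries, and Irf9 is low at low shares, while the 10 Hz libraries spread from 37.0 to 271 CPM.

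Other genes of the pathway were taken from 10 lists holding 104 genes, of which 64 passed the filter on low counts. At 1 Hz, 5 of the 64 were higher and 9 lower than in control. At 4 Hz, 4 were higher and 11 lower, and at 10 Hz none passed both thresholds in edgeR. By the adjusted p alone 3 were lower at 10 Hz, beside 2.22% of all genes. An unadjusted p below 0.05 was found there for 14, beside 2750 of all 13318 genes. Of all genes tested, 9.34% were higher and 8.99% lower at 1 Hz, and 10.5% were higher and 9.61% lower at 4 Hz, the background for the counts of each list. The median log2 fold change of the 64 was −0.04 at 1 Hz, −0.10 at 4 Hz, and −0.10 at 10 Hz, beside −0.01 over all genes tested in each comparison. With the small RNA share as a covariate, 1 of all 13318 genes passed both thresholds at 1 Hz and 250 at 4 Hz.

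Ligands were at or near the limit of detection. Ifnb1 and Ifna4 were listed at 0 in every library, and the mean of Ifng was at most 0.187 TPM. Of the 5 tested receptor genes none passed both thresholds at 1 Hz and 1 was lower at 4 Hz. Ifnar2 was higher at 1 Hz by the adjusted p alone, at 0.22 (adjusted p = 0.0186). Ifngr1, a subunit of the interferon gamma receptor, had a log2 fold change of −0.47 at 1 Hz (adjusted p = 0.000397) and −0.42 at 4 Hz (adjusted p = 0.000895), both under the fold threshold, and Il10rb, a receptor subunit shared by interferon lambda and interleukin 10, fell by 0.60 at 4 Hz (adjusted p = 0.00132). Among 9 tested kinases, STATs, and inhibitors, none passed both thresholds at 1 Hz. By the adjusted p alone, Pias1 was higher at 1 Hz, at 0.30 (adjusted p = 0.0234). Jak2, a kinase of the interferon gamma receptor, was lower there by it, at −0.38 (adjusted p = 0.0239). At 4 Hz, Jak2 fell by 0.60 (adjusted p = 0.000621). Stat3 had a log2 fold change of −0.40 at 4 Hz (adjusted p = 6.18e-05) and of −0.40 at 10 Hz (adjusted p = 0.00133). Jak1 was lower by the adjusted p alone at 4 Hz, at −0.25 (adjusted p = 0.00693), and at 10 Hz, at −0.44 (adjusted p = 0.000687). Of 3 other tested regulatory factors, Irf7, which amplifies the type I response, fell by 0.91 at 4 Hz (adjusted p = 0.00944), with −0.64 at 1 Hz (adjusted p = 0.0682), and Irf3 passed at neither.

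Of 9 tested nucleic acid sensors and adaptors, Sting1, the adaptor of the cytosolic DNA sensor, was lower at both frequencies. Its level was 14.0 ± 5.24 TPM in control, 6.05 ± 3.65 at 1 Hz, and 3.09 ± 0.865 at 4 Hz (mean ± SD, n = 6). It fell by 1.23 on the log2 scale at 1 Hz (SE 0.22, adjusted p = 0.000178) and by 1.96 at 4 Hz (SE 0.23, adjusted p = 7.49e-07). Cgas, which encodes that DNA sensor, was higher at 4 Hz, by 0.505 (adjusted p = 0.00643), just past the fold threshold. Ube2l6, which encodes a conjugating enzyme for ISG15, was the only gene of 3 in the conjugation list that passed the filter. It fell by 0.91 at 1 Hz (SE 0.16, adjusted p = 0.000108) and by 1.09 at 4 Hz (SE 0.16, adjusted p = 7.4e-06), from 28.9 ± 4.53 TPM to 15.8 ± 3.49 and 12.7 ± 2.70 TPM.

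All 4 tested interferon-gamma-inducible GTPases, which act on the vacuoles of intracellular pathogens, were lower at both 1 and 4 Hz, where 8.99% and 9.61% of all genes were lower, and the other 4 of the list did not pass the filter. Irgm1 fell by 0.79 at 1 Hz (adjusted p = 0.000378) and by 0.70 at 4 Hz (adjusted p = 0.00075), and Igtp by 0.67 (adjusted p = 0.0305) and 0.92 (adjusted p = 0.00325). Irgm2 and Ifi47 made up the count. None of the 4 passed at 10 Hz in the edgeR test, with log2 fold changes of −0.11 for Irgm1 and −0.01 for Igtp.

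Of 28 further antiviral genes, 16 did not pass the filter, among them Mx1, Ifit1, and Oas2, whose means stayed at or below 0.261 TPM. Of the 12 tested, 3 were lower at 1 Hz and 2 at 4 Hz, and none was higher past both thresholds, beside 8.99% and 9.61% of all genes lower at these frequencies. By the adjusted p alone, 4 were lower and 1 higher at each frequency. Of all genes, 17.3% were lower and 18.1% higher by it at 1 Hz, and 20.2% and 19.2% at 4 Hz. The higher gene was Ifitm2, at 0.31 (adjusted p = 0.0256) at 1 Hz and 0.30 (adjusted p = 0.0307) at 4 Hz. Ifi35 fell by 0.63 at 1 Hz (adjusted p = 0.000829) and Xaf1, a proapoptotic factor, fell by 0.68 at 1 Hz (adjusted p = 0.00281) and by 0.70 at 4 Hz (adjusted p = 0.00157). Trim21, an antibody receptor of the cytosol, made up the counts, with −0.85 at 1 Hz (adjusted p = 0.0132) and −0.63 at 4 Hz (adjusted p = 0.0467).

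The antigen presentation genes past both thresholds were higher at 1 and 4 Hz. Of 7 other tested class I heavy chains, 2 were higher at 1 Hz and none at 4 Hz, H2-Q4 by 0.71 (adjusted p = 0.00378) and H2-Q10 by 0.65 (adjusted p = 0.0442), both subject to the sharing of reads described for H2-K1. Of 12 tested genes of peptide supply and loading, 2 were higher at both frequencies and none was lower past both thresholds, beside 9.34% of all genes higher at 1 Hz and 10.5% at 4 Hz. By the adjusted p alone, Canx was higher, at 0.41 (adjusted p = 0.000596) at 1 Hz and 0.31 (adjusted p = 0.00527) at 4 Hz. Also by it alone, Psme1, a proteasome activator subunit, was lower at 1 Hz, at −0.27 (adjusted p = 0.0305). Tapbp, the tapasin gene, was lower by it at 4 Hz, at −0.46 (adjusted p = 0.000981). Calr, a calcium-binding chaperone of newly made glycoproteins, rose by 1.08 at 1 Hz (SE 0.14, adjusted p = 4.66e-06) and by 1.47 at 4 Hz (SE 0.14, adjusted p = 5.12e-08). Pdia3, a thiol isomerase, rose by 0.57 (adjusted p = 0.000202) at 1 Hz and by 0.73 (adjusted p = 8.82e-06) at 4 Hz. Both also serve general protein folding in the endoplasmic reticulum. The peptide transporter Tap1 had a log2 fold change of 0.47 at 1 Hz (adjusted p = 0.0952), and the immunoproteasome subunit Psmb8 did not pass the filter, at 0.533 ± 0.536 TPM in control. Of 6 class II genes 2 were tested, and Cd74, the invariant chain, was higher by 1.11 at 1 Hz (adjusted p = 0.0358) and by 1.08 at 4 Hz (adjusted p = 0.0376) from a control mean of 0.992 TPM, whereas H2-DMa stayed under the fold threshold.

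**Figure D5:**
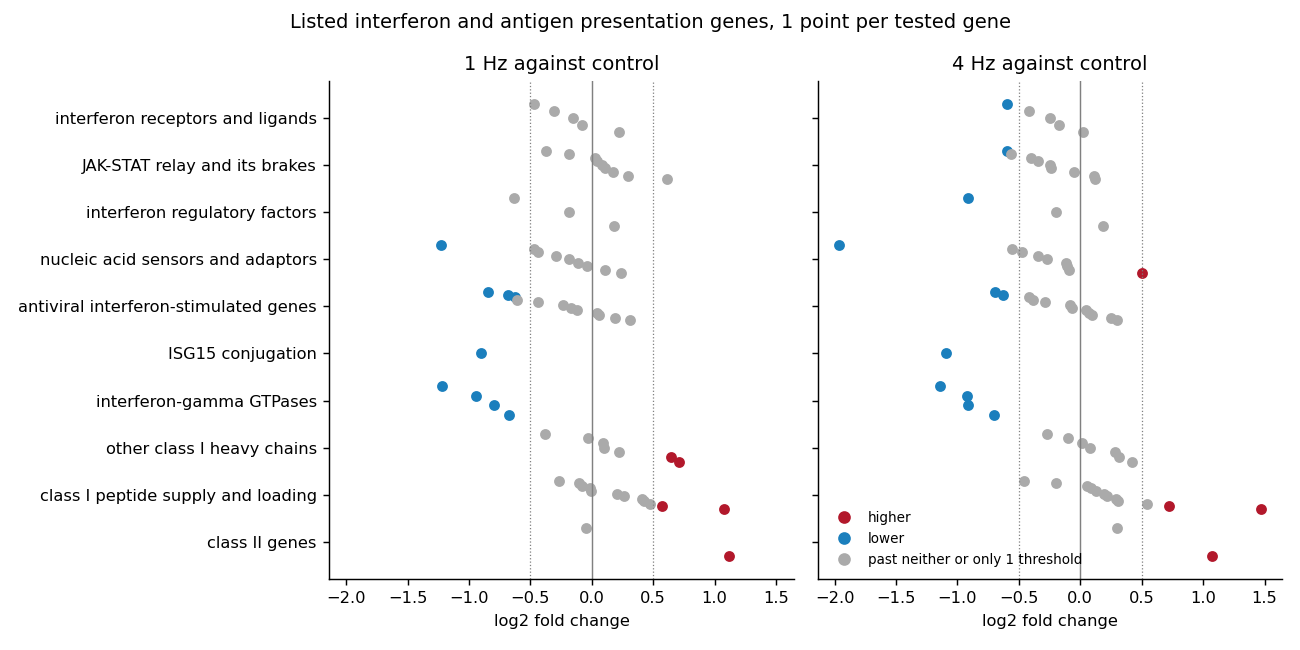
Log2 fold change against control at 1 Hz (left) and 4 Hz (right) for the 64 tested genes of 10 lists, 1 point per gene, with dotted lines at the fold threshold of 0.5. Blue points were lower and red points higher past both thresholds. All 4 points of the interferon-gamma GTPase row are blue in both panels, and the red points lie in the antigen presentation rows, apart from Cgas at 4 Hz.

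The mean of the 9 standardized levels was used to find genes with a like pattern. Among 9287 other genes with a mean of at least 10 CPM, the highest Pearson correlations with it over 24 libraries were those of Rtcb, an RNA ligase, at r = 0.91, Tuba1c, an alpha-tubulin, at 0.88, and Tmem101, Nectin2, and Atg101, each at 0.87. Rtcb measured 200 CPM in control, 181 at 1 Hz, 181 at 4 Hz, and 192 at 10 Hz. These are the extremes of many genes over libraries that share composition, and none is a listed interferon gene.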

How the data were processed

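RNA was selected for poly(A) and directional libraries were sequenced as paired-end reads. Per the labels, low-input samples were instead made by ribodepletion. The authors processed reads with nf-core/rnaseq (STAR and Salmon) against GRCm39 with an Ensembl annotation whose release, like the use of strand in counting, is not given in the sources used here. What they deposited were Salmon expected counts (estimated, not normalized) and TPM per gene, which the authors scaled to a fixed sum per library. Groups came from the sample titles. Nothing in the labels says whether replicates were separate cultures, although the study calls them biological replicates. No pair of libraries was a copy (lowest chi-square per gene 3.16 over 60 pairs).

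Estimated counts were rounded. edgeR 4.0.16 (R 4.3.3) was run with filterByExpr, TMM scaling, and the quasi-likelihood test in 1 fit of all 24 libraries, followed by 6 contrasts. P-values were adjusted by Benjamini-Hochberg over 13318 genes. Calls needed an adjusted p under 0.05 with a log2 fold change over 0.5 in size, and the adjusted p alone was also used. CPM use TMM-scaled library sizes. Fits were tested on simulated data. Alternatives were DESeq2 1.42.0, its size factors in edgeR, total count scaling, no filter, limma 3.58.1 on log2(TPM + 1) or log2(TPM + 0.1) (mean TPM of at least 1, or no filter), where the fold change of low genes depends on the pseudocount and log2(TPM + 1) understates it, only the 12 libraries compared, a replicate block, the small RNA share as covariate, and leaving out each library. Depth of 4.09 to 15.2 M counts limits Isg15 most.

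The 9 genes and the lists were chosen with earlier results of these data known. Named from each list are the 2 genes with the lowest adjusted p at 1 or 4 Hz, with Tap1 and Psmb8. A further gene of the rule is not reported here. Names that complete a small count (Irgm2, Ifi47, Trim21), examples of untested genes, and the neighbor Rnf31 were chosen after their values were seen. So were genes named as lower or higher by the adjusted p alone (Psme1, Tapbp, Canx, Cd14, Pdgfra, Jak1, Pias1, Ifnar2, Ifitm2). Positions came from GENCODE M39 on GRCm39, which may not be the release the authors used.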

Additional observations from a re-analysis of the deposited data

Results flagged for a closer look

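Of 36 sets of 6 libraries (9 genes in 4 conditions), 2 held a library whose gap to its nearest neighbor, as a share of the whole range, exceeded Dixon's 95% critical value, and chance flags about 1 set in 20. Stat2 in control replicate 2 had a share of 0.676, at 29.3 CPM beside 22.5 CPM in the next library. Ifitm3 in 1 Hz replicate 3 had a share of 0.650, at 50.6 CPM beside 63.1 CPM in the next library.

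Of 27 differences between the effects of 2 frequencies (9 genes and 3 pairs of frequencies), 8 passed an adjusted p below 0.05 in the edgeR contrast. Between 10 and 1 Hz these were Isg15, at a log2 difference of 1.53, Irf9 at 0.65, Irf1 at 0.59, H2-K1 at −0.39, and H2-D1 at −0.32. Between 4 and 1 Hz they were Irf1 at 0.43 and H2-D1 at −0.29, and between 10 and 4 Hz Irf9 at 0.39. With the small RNA share, lower at 1 and 4 Hz than in control, as a covariate, none of the 5 between 10 and 1 Hz passed, with log2 differences of 1.43 for Isg15, 0.20 for Irf9, 0.39 for Irf1, −0.41 for H2-K1, and −0.42 for H2-D1. The shares at 10 Hz, 37.0 to 271 CPM, overlapped those at 1 Hz, 14.1 to 69.6 CPM, in part. Stimulation and composition were thus not fully separated there.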

How the results depend on the processing

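Irf1, Irf9, and Isg15 remained the genes called at 1 Hz under DESeq2 size factors, total count scaling, DESeq2, each TPM setting, and the replicate block, and leaving out single libraries gave 3 of 9 genes throughout. Without the filter on low counts, and with only the 12 libraries compared, the count was 2 (Irf1 and Irf9), and with those 12 it was also 2 for 10 against 1 Hz. Isg15 did not pass the filter in either fit of 12 libraries. With the small RNA share as covariate the count was 0 at 1 Hz and 0 for 10 against 1 Hz. At 4 Hz the count was 1 (Irf9) under total count scaling, each of the 3 TPM settings, and the adjusted p alone. For 10 against 4 Hz it was 1 under total count scaling (Isg15), log2(TPM + 0.1) (Irf9), and the adjusted p alone, and 0 to 1 with single libraries left out. For 4 against 1 Hz it was 2 by the adjusted p alone and 0 to 1 with single libraries left out, and for 10 against 1 Hz 5 by the adjusted p alone and 2 (Irf9 and Isg15) with each TPM setting. With the covariate, Irf9 changed sign, to 0.0544 at 4 Hz and to −0.0596 for 10 against 4 Hz. Of the other alternative values of the 13 results past the adjusted p, 242 kept their side of the threshold and 40 lost it.

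Over all genes, the covariate left 1 called gene at 1 Hz, 250 at 4 Hz, 248 for 10 against 1 Hz, and 0 for 10 against 4 Hz. The adjusted p alone gave 4720 genes at 1 Hz, 5251 at 4 Hz, 651 at 10 Hz, 1634 for 4 against 1 Hz, 4829 for 10 against 1 Hz, and 3037 for 10 against 4 Hz. At 10 Hz the count was 248, and was 158 with unfiltered TPM, 146 with the 12 libraries compared, and 147 to 301 with single libraries left out. For 10 against 4 Hz unfiltered TPM gave 831 beside 1460. The cause of these changes was not tested.

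Replicate numbers were checked as a possible pairing of the libraries, which the main fit did not use. Deviations of 36 same-numbered pairs had correlations of −0.18 to 0.36 (10 over 0.1), and 10 of 24 libraries correlated best with their own number. With the replicate block, Irf9 for 10 against 4 Hz was 0.38 (adjusted p = 0.0551). Of 41 results that did not pass, none changed sign and passed under any of 900 alternative values, and 17 values, of 7 results, passed.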
